A study of Mus musculus with 2 samples.

Results

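Axon guidance ligands and receptors are the genes that steer growing nerve fibres and, in adult tissue, help to keep cells sorted and attached. The 71 genes described here were taken by name from the 31053 genes of the count matrices. They are 20 semaphorins, 9 plexins, 2 neuropilins, 8 ephrins, 14 Eph receptors, 3 Slits, 4 Robos, 3 netrins, 5 netrin receptors (Dcc and the Unc5 genes), and 3 antisense genes at Plxna4 whose names match those of the plexins. No measured value entered this choice by name, which was made with earlier results of these data known. Of the 71 genes, 69 had at least 1 UMI (unique molecular identifier, which counts a captured transcript once) in the cells that were kept, and 37 reached 10 CPM (UMIs per 1000000 UMIs) in both libraries in at least 1 cell class.

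The cells came from dorsal root ganglia (DRGs) of Swiss mice aged 2 weeks, described in the methods as male and female, with no genetic change or injury. The ganglia were digested with enzymes, and the cells grew for 3 days in culture on laminin before they were loaded on a 10x Chromium chip as 2 libraries, A and B. This is the only condition of the series, so the comparisons below are between cell classes and clusters of the same cultures. Whether the libraries stem from different mice or culture dishes is not given in the sources used here. Every p-value therefore weighs a difference only against how class or cluster differences vary between these 2 libraries. That spread is pooled over the classes or clusters of a fit and partly shared across genes.

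Guidance genes work as ligands and receptors on neighbouring cells. Secreted class 3 semaphorins are known to bind neuropilins, which signal through plexins, while membrane-bound semaphorins bind plexins directly. Ephrins are anchored in the membrane and bind Eph receptor kinases on the cell they touch, Slits bind Robos, and netrins bind Dcc and the Unc5 receptors. In ganglia and nerves these families are known for the growth of sensory fibres toward their targets and for how Schwann cells and fibroblasts sort at an injury.

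Library A held 5175 barcodes with 40355401 UMIs and library B 5773 barcodes with 38945848 UMIs. After the filters 10730 of 10948 cells remained, and 7 of their barcodes occurred in both libraries. Clustering without the 71 genes gave 4 classes with the marker genes of glia, neurons, fibroblasts and macrophages, called by these names below (glia-like, neuron-like and so on, since they rest on markers alone). Glia made up 88.0% ± 1.06 of the cells (SD, n = 2 libraries, as for every ± below), neurons 7.59% ± 1.40, fibroblasts 3.61% ± 0.282 and macrophages 0.771% ± 0.0578, with 9449, 809, 389 and 83 cells. The median cell held 4723 UMIs in glia, 28332 in neurons, 11510 in fibroblasts and 9203 in macrophages. A count of 3 UMIs over a class, the floor used here, stands for 0.0580 CPM in glia, 0.145 in neurons, 0.663 in fibroblasts and 3.33 in macrophages, counting error only.

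Each class was led by its own markers, but glial transcripts were counted in every class. Sox10, the transcription factor of neural crest glia, was counted at 219 ± 2.09 CPM in glia against 29.3 ± 4.98 in neurons. For Tubb3, a tubulin of neurons, the levels were 2290.3 ± 25.2 CPM in neurons against 34.6 ± 5.04 in glia. Dcn, a proteoglycan of fibroblasts, and C1qa, a complement gene of macrophages, stood at 4976 ± 504 CPM in fibroblasts against 3.57 ± 0.799 in glia and at 4529.6 ± 193 in macrophages against 0.462 ± 0.153 in glia. Of the 8 glial markers, Gfra3 and S100b were also high in neurons (255 ± 41.3 and 88 ± 4.42 CPM). The 6 others were counted in neurons at 7.76 to 13.7% of their glial level (median 9.42), in fibroblasts at 2.76 to 13.1% and in macrophages at 20.2 to 34.4%. The 10 neuron markers stood in glia at 0.604 to 3.70% of their neuronal level. The 8 fibroblast markers stood in glia at 0.0717 to 71.3% of their fibroblast level (median 12.2), the highest being the collagen gene Col1a2 at 1134 ± 6.26 CPM in glia. The part of such counts in the levels below was not tested.

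Across the classes, 16 of the 37 genes that reached 10 CPM had their highest mean level in glia, 10 in neurons, 8 in fibroblasts and 3 in macrophages. No such split was made for all genes, so these counts describe only the 37. Some placings were close, since Sema5a, Efna5 and Plxna2 had near-equal means in neurons and fibroblasts. Slit2 did not pass between fibroblasts and glia, nor Plxnd1 between macrophages and glia. Relative to their glial level, 3 of the 16 glial genes (Sema3b, Sema3g and Plxnb3) stood in neurons no higher than the highest of the 6 glial markers. The same held for 6 in fibroblasts (Sema3b, Sema3g, Sema3e, Plxnb3, Epha5 and Ntn5) and for 13 in macrophages, where Sema4b, Sema4c and Efna2 were the exceptions. Of the 10 neuronal genes, Slit1 alone stood in glia within the range of the neuron markers. Taken as sums over a family, semaphorin counts came to 572 ± 2.72 CPM in glia and 333 ± 4.45 in neurons, and plexin counts to 168 ± 2.4 CPM in glia and 324 ± 8.34 in neurons. The 2 neuropilins summed to 253 ± 12.9 CPM in fibroblasts and 272 ± 15.9 in macrophages, above 80.4 ± 1.33 in glia and 50.3 ± 7.92 in neurons. The plexin sum was 218 ± 31.3 CPM in macrophages and 96.5 ± 1.01 in fibroblasts. The order of glia and neurons rested on 1 gene in the semaphorin and in the plexin sum. Without Sema3b the semaphorin sum was 288 ± 0.687 CPM in glia and 307 ± 6.8 in neurons, and without Plxna4 the plexin sum was 157 ± 1.49 in glia and 112 ± 1.24 in neurons. The levels compare 1 gene or family between classes and say nothing on the order of genes within a class.

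**Figure D1:**
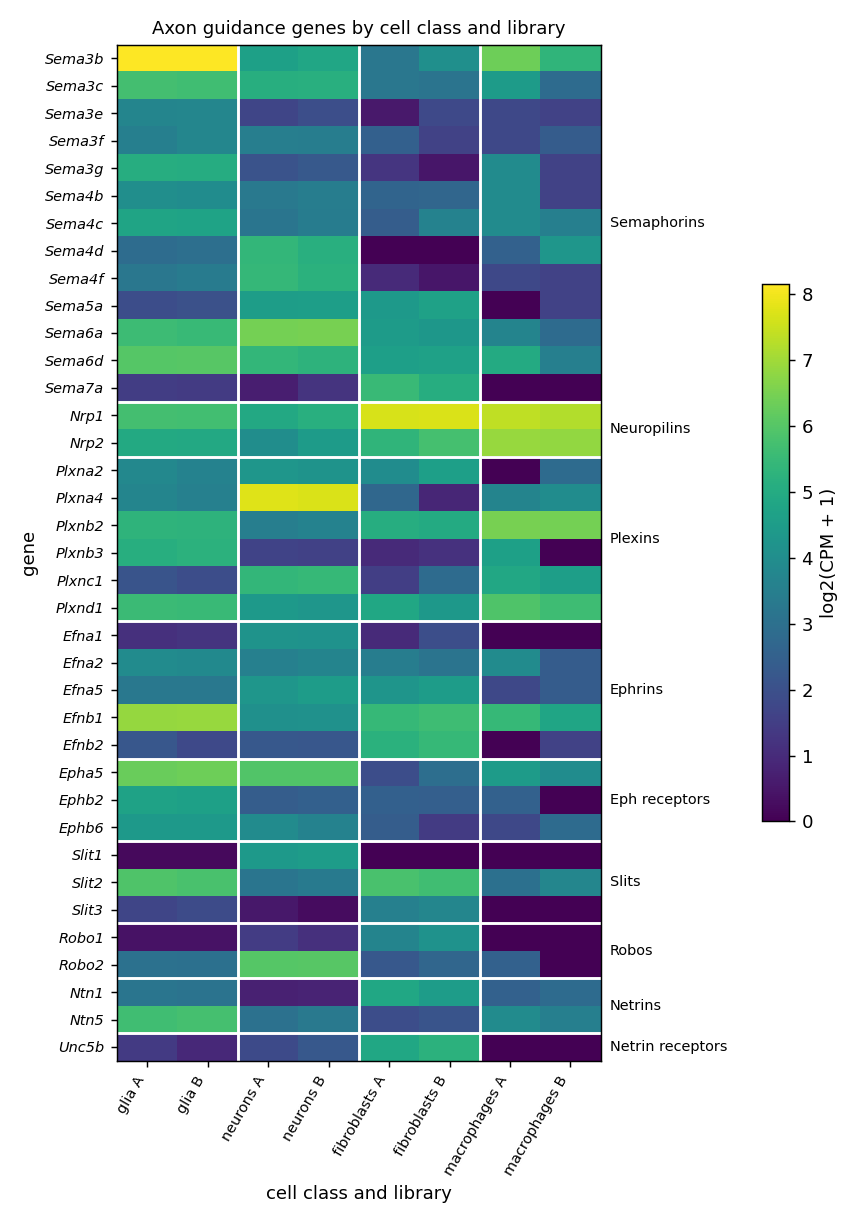
Level of the 37 genes that reached 10 CPM in both libraries of a class, as log2(CPM + 1), with 1 row per gene in families and 1 column per cell class and library (A, B). Neighbouring columns of glia and of neurons are close to each other. Those of fibroblasts differ for some genes at low levels, such as Plxna4 (5.66 CPM in A and 0.831 in B). The macrophage columns, from 37 and 46 cells, differ more. Sema3b in glia and Plxna4 in neurons are among the brightest cells.

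Of the 57 genes with enough counts for edgeR's quasi-likelihood test, 20 were higher and 32 lower in neurons than in glia at an adjusted p under 0.05. Over all 13791 genes tested, 40.9% were higher and 43.0% lower, beside 35.1% and 56.1% of the guidance genes, so nearly every gene of these classes differed and a call by itself says little. The median log2 difference was -0.54 over the guidance genes and -0.04 over all genes. The classes were drawn from other genes of the same cells, which the p-values do not take into account.

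Semaphorins split between classes by member, not as a family, with 6 of 19 tested higher and 11 lower in neurons than in glia. Sema3b (ENSMUSG00000057969, chr9:107597674-107609229, minus strand, in the mouse build GRCm38), a secreted class 3 semaphorin, had the largest gap of the family between glia and neurons. It stood at 285 CPM in glia of library A and 282 in B, at 23.8 and 27.2 in neurons, 8.49 and 15.8 in fibroblasts and 80.8 and 39.6 in macrophages. Both glial values lay far above all others, and the log2 difference was -3.45 (SE 0.08) between neurons and glia and -4.28 (SE 0.15) between fibroblasts and glia (edgeR adjusted p = 5.40e-24 and 1.49e-19). The levels of Sema3b outside glia were within the range of the glial markers there. When every cell was thinned to 2000 UMIs, which left out 229 of 10730 cells, 43.3% of glia had a UMI of Sema3b, against 5.89% of neurons, 2.93% of fibroblasts and 4.88% of macrophages. Without thinning the shares were 71.9% of glia and 36.6% of neurons, at their unequal depths.

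The other secreted class 3 semaphorins that reached 10 CPM were highest in glia as well. Sema3c was counted at 50.6 ± 1.85 CPM in glia, 34.2 ± 0.698 in neurons and 8.19 ± 0.424 in fibroblasts. The neuron level was 67.5% of the glial one, above the range of the glial markers (log2 difference -0.54 (SE 0.08) against glia). Sema3g was counted at 32.6 ± 0.394 CPM in glia against 3.56 ± 0.409 in neurons, within the range of the glial markers. Sema3e, a semaphorin known to bind Plxnd1 without a neuropilin, was counted at 12.3 ± 0.189 CPM in glia against 2.55 ± 0.439 in neurons. Sema3f, known as a ligand of Nrp2, did not pass between neurons and glia, with 10.1 ± 0.166 and 11.5 ± 1.33 CPM and a log2 difference of -0.14 (SE 0.13) (edgeR adjusted p = 0.32). Fibroblasts were lower than glia in all of these, by log2 differences from -4.94 for Sema3g to -1.56 for Sema3f.

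Membrane-bound semaphorins gave neurons their own set. Sema4d, a ligand of the B plexins that can be shed from the cell surface, stood at 41.8 and 34.8 CPM in neurons of A and B, at 6.45 and 6.84 in glia, at 4.75 and 18.7 in macrophages and at 0 in fibroblasts of both libraries. Against the floor of 3 counts over the class, its level was at least 57.7-fold higher in neurons and at least 10.0-fold higher in glia than in fibroblasts. Sema4f, a membrane semaphorin of the nervous system, stood at 42.2 and 36.1 CPM in neurons and 8.5 and 9.46 in glia. Both genes were thus several-fold higher in neurons, with log2 differences of 2.56 (SE 0.12) and 2.16 (SE 0.10) over glia (edgeR adjusted p = 2.87e-17 and 2.20e-17). Of thinned cells, 5.97% of neurons and 1.36% of glia had a UMI of Sema4d.

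Sema6a, a transmembrane ligand of Plxna2 and Plxna4, was the highest in neurons but was not low elsewhere. It was counted at 87.1 and 88.5 CPM in neurons, 47.1 and 44.4 in glia, 21.2 and 19.1 in fibroblasts and 11.9 and 6.25 in macrophages. No class overlapped another, and the log2 difference between neurons and glia was 0.97 (SE 0.06) (edgeR adjusted p = 7.18e-14). Sema6d, its relative, had the other order, with 63.7 ± 1.05 CPM in glia, 39.2 ± 2.45 in neurons and 24 ± 0.65 in fibroblasts. Sema4b and Sema4c were also higher in glia, at 15.1 ± 0.564 and 26.1 ± 0.261 CPM against 9.43 ± 0.669 and 8.94 ± 1.2 in neurons.

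Neurons and fibroblasts shared Sema5a, while Sema7a marked fibroblasts. Sema5a, a transmembrane semaphorin with thrombospondin repeats, stood at 22.4 and 22.7 CPM in neurons and 20.3 and 24.5 in fibroblasts, with 2.83 and 3.08 in glia. Neurons and fibroblasts overlapped (log2 difference -0.20 (SE 0.17), edgeR adjusted p = 0.3), and both lay above glia by 2.96 and 3.16. Sema7a, which is held to the membrane by a lipid anchor and is known to bind Plxnc1, stood at 45.3 and 32.8 CPM in fibroblasts, 1.81 and 1.67 in glia and 0.603 and 1.32 in neurons. Its log2 difference between fibroblasts and glia was 4.71 (SE 0.23) (edgeR adjusted p = 7.09e-16).

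The neuropilins, co-receptors of the class 3 semaphorins and of VEGF, were highest outside both neurons and glia. Nrp1 (ENSMUSG00000025810, chr8:128358604-128503363, plus strand) stood at 204 and 209 CPM in fibroblasts, 164 and 148 in macrophages, 51.2 and 50.4 in glia and 29.6 and 34.6 in neurons. Nrp2 (ENSMUSG00000025969, chr1:62703285-62818695, plus strand) stood at 119 and 112 CPM in macrophages, 39.6 and 52.8 in fibroblasts, 30.1 and 29.1 in glia and 15.1 and 21.2 in neurons. Thus the order of fibroblasts and macrophages was opposite for the pair, and no class overlapped another for either gene. Against glia the log2 differences in fibroblasts were 2.26 (SE 0.08) for Nrp1 and 0.89 (SE 0.14) for Nrp2, and in macrophages 1.77 (SE 0.16) and 2.12 (SE 0.21) (largest edgeR adjusted p of the 4 = 4.34e-06). Of thinned cells, 28.7% of fibroblasts and 23% of macrophages had a UMI of Nrp1, against 6.84% of neurons and 9.06% of glia.

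Among the plexins, the signalling receptors of semaphorins, Plxna4 set neurons apart. Plxna4 (ENSMUSG00000029765, chr6:32144268-32588192, minus strand), a partner of the neuropilins, stood at 217 and 207 CPM in neurons, 12 and 10.8 in glia, 11.9 and 14.6 in macrophages and 5.66 and 0.831 in fibroblasts. Neurons lay far above every other class in both libraries, with a log2 difference of 4.25 (SE 0.08) over glia and 5.88 (SE 0.21) over fibroblasts (edgeR adjusted p = 3.08e-26 and 9.52e-20). A UMI of Plxna4 was found in 30.5% of thinned neurons against 2.32% of glia. Plxnc1, the receptor of Sema7a, stood at 42.1 ± 1.11 CPM in neurons, 25.7 ± 3.97 in macrophages, 4.06 ± 3.07 in fibroblasts and 3.08 ± 0.377 in glia, a log2 difference of 3.80 (SE 0.12) between neurons and glia. Its ligand and receptor counts therefore stood in different classes, Sema7a in fibroblasts and Plxnc1 in neurons and macrophages.

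The B and D plexins were lower in neurons than in glia. Plxnb3, a receptor for Sema5a known from oligodendrocytes, stood at 33.9 and 36.6 CPM in glia, 2.15 and 1.98 in neurons and 0.943 and 1.25 in fibroblasts. The neuron value was below the range of the glial markers, and the log2 difference was -4.04 (SE 0.19) (edgeR adjusted p = 1.63e-17). In macrophages it was 23.8 CPM in A and 0 in B, from 37 and 46 cells. Plxnb2, a receptor of class 4 semaphorins that is widely expressed, was highest in macrophages at 87.9 and 87.5 CPM, with 38.1 ± 0.557 in glia, 31.9 ± 1.62 in fibroblasts and 10.7 ± 0.828 in neurons. Plxnd1, the receptor of Sema3e, stood at 53.7 ± 8.14 CPM in macrophages, 46.2 ± 0.704 in glia, 23.7 ± 5.88 in fibroblasts and 19.4 ± 1.16 in neurons. Plxna2 was at similar levels in fibroblasts and neurons, 18.9 ± 6.11 and 18 ± 0.999 CPM, and lower in glia, 12.2 ± 1.12 (log2 difference of neurons over glia 0.60 (SE 0.12)).

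**Figure D2:**
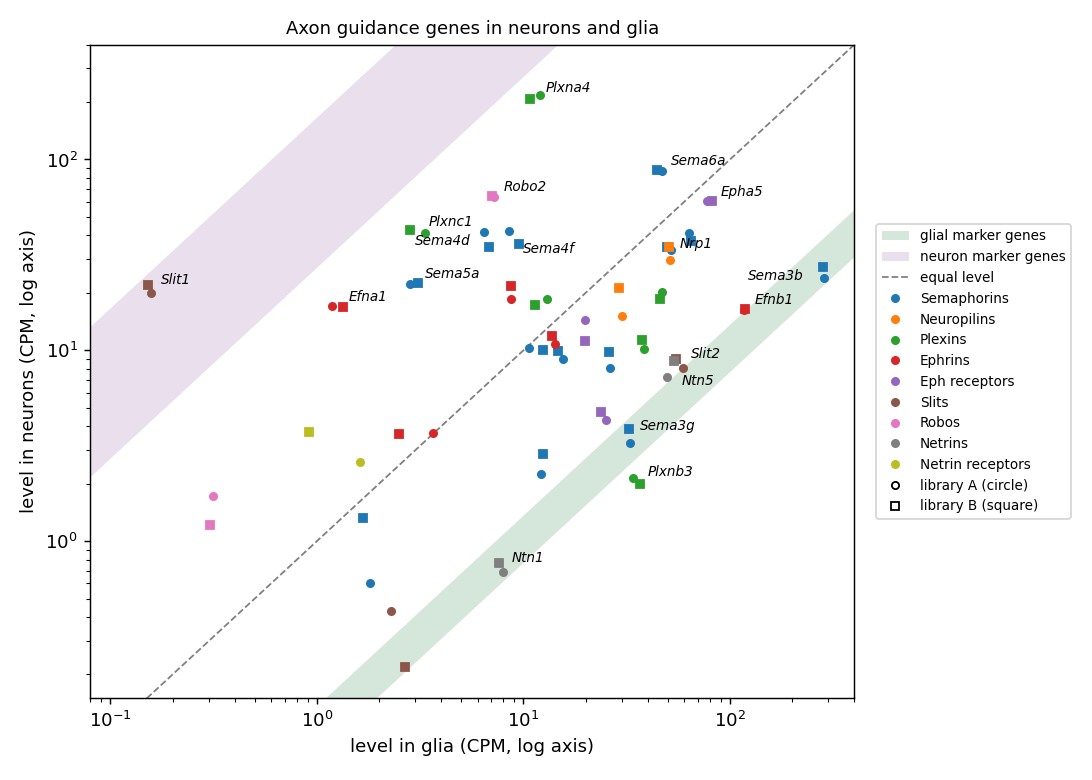
Level in neurons against level in glia for the 37 genes, in CPM on log axes, with circles for library A and squares for library B and 1 colour per family. The green band is the range over 6 glial marker genes of their level in neurons relative to glia (7.76 to 13.7%) and the violet band the range of the 10 neuron markers; Sema3b and Sema3g lie in the green band, Slit1 in the violet one and most genes between the bands.

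Ephrin counts summed to 149 ± 0.0144 CPM in glia, 124 ± 11 in fibroblasts and 71.2 ± 3.19 in neurons. Eph receptor counts summed to 149 ± 3.31, 31.8 ± 0.361 and 87.4 ± 1.8 CPM in these classes. Both families thus had their highest sum in glia, but Efnb1 alone held 117 CPM of the glial ephrin sum. It held 45.8 CPM in fibroblasts and 16.3 in neurons, so the place of glia in the ephrin sums rested on this gene. Efnb1 (ENSMUSG00000031217, chrX:99136130-99148991, plus strand), a transmembrane ephrin, stood at 116 and 118 CPM in glia, 42.9 and 48.6 in fibroblasts, 42.8 and 27.1 in macrophages and 16.3 and 16.4 in neurons. Its log2 difference between neurons and glia was -2.81, with a neuron level just above the marker range (edgeR adjusted p = 4.30e-22). The related Efnb2 belonged to fibroblasts, with 35.9 and 43.6 CPM there, 3.66 and 2.51 in glia and 3.7 and 3.63 in neurons, a log2 difference of 3.94 (SE 0.21) between fibroblasts and glia. For Efnb2 the neuron and glia values did not pass the test (log2 difference 0.29 (SE 0.24), edgeR adjusted p = 0.27). Leaving out 27 cells of the neuron class with glial genes made it 0.55 for Efnb2, which passed. Those cells held 0 of the 43 neuron UMIs of Efnb2 in A and 1 of 33 in B. The part of scaling in the shift was not tested. The fibroblast class also had the highest sums of vessel markers, and vessels are a place where Efnb2, Nrp1 and Unc5b are known to be used. The 8 endothelial markers, all detected there, summed to 94.0 CPM in fibroblasts, 60.3 in neurons and 16.3 in glia. Egfl7 alone held 21.1, 59.1 and 15.5 CPM of these sums. In fibroblasts Cdh5 stood at 52.1 CPM, Emcn at 13.2 and Cldn5 at 4.06, and Pecam1, Kdr, Flt1 and Tie1 from 0.708 to 1.12. Cldn5 had no UMI in the other classes, and Emcn stood at 0.019 CPM in glia with none in neurons and macrophages. The 8 markers of pericytes or smooth muscle summed to 400.4, 6.93 and 29.9 CPM. In fibroblasts Pdgfrb stood at 186 CPM, Tagln at 99.5, Acta2 at 78.2 and Rgs5 at 10.3. The part of vessel cells in the fibroblast levels was not tested.

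The A ephrins, which hang on lipid anchors, showed 3 patterns. Efna1 was a neuronal gene, with 17 ± 0.214 CPM in neurons, 1.93 ± 1.39 in fibroblasts, 1.26 ± 0.106 in glia and none in macrophages (log2 difference 3.78 (SE 0.18) over glia, edgeR adjusted p = 1.73e-16). Efna5 stood at 20.2 ± 2.11 CPM in neurons and 20 ± 2.89 in fibroblasts, above 8.68 ± 0.0229 in glia. Efna2 differed little between classes, with 14 ± 0.346 CPM in glia, 11.3 ± 0.791 in neurons and 8.9 ± 1.42 in fibroblasts. The log2 difference of Efna2 between neurons and glia, -0.28 (SE 0.12), passed at an edgeR adjusted p of 0.035 but became 0.01 without the cells of highest doublet score, and its call was lost in 5 of the settings tried.

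Epha5 (ENSMUSG00000029245, chr5:84054761-84417382, minus strand), a kinase receptor of A ephrins, was high in glia and neurons together. It stood at 77.1 and 81.8 CPM in glia, 60.3 and 60.4 in neurons, 21.4 and 14.6 in macrophages and 2.83 and 6.65 in fibroblasts. Fibroblasts lay below glia, at a log2 difference of -3.79 (edgeR adjusted p = 4.45e-15), within the range of the glial markers. The smaller log2 difference between neurons and glia, -0.36 (SE 0.07) for Epha5, passed at an edgeR adjusted p of 2.65e-05. It was -0.08 and did not pass when the 27 neuron-class cells with glial genes were left out. Those cells held only 3 of the 700 neuron UMIs of Epha5 in A and 3 of 549 in B. The part of scaling in this shift was not tested. Of thinned cells 14.4% of glia, 10.7% of neurons and 1.0% of fibroblasts had a UMI of Epha5. Ephb2, a receptor of B ephrins, was counted at 24.4 ± 0.821 CPM in glia against 4.52 ± 0.301 in neurons, and Ephb6, a relative without kinase activity, at 19.9 ± 0.0262 and 12.8 ± 2.23.

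Slit and Robo genes were spread by member over glia, fibroblasts and neurons. Slit2 (ENSMUSG00000031558, chr5:47983138-48307733, plus strand), a secreted repellent, was counted at 59.5 and 54.9 CPM in glia and 55.2 and 49.8 in fibroblasts, against 8.09 and 9.02 in neurons and 7.13 and 12.5 in macrophages. Glia and fibroblasts overlapped, with a log2 difference of 0.12 (SE 0.11) (edgeR adjusted p = 0.38), while neurons were lower than glia (log2 difference -2.72). The sign of the fibroblast difference depends on the scaling, since the fitted value is positive after TMM while the CPM are lower in fibroblasts, and with library sizes alone it was -0.12. The fibroblast difference for Slit2 rose to between 0.27 and 0.31 and passed in 3 of the settings tried. Slit3 was a fibroblast gene, at 11.7 ± 1.14 CPM there, 2.47 ± 0.267 in glia and 0.325 ± 0.149 in neurons.

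Slit1 (ENSMUSG00000025020, chr19:41600257-41743665, minus strand) was counted almost only in neurons. It stood at 19.9 and 22 CPM in neurons and 0.157 and 0.152 in glia, where 4 UMIs were counted in each library, with 0 in fibroblasts and macrophages. The glial level of Slit1 lay within the range of the neuron markers there, and the log2 difference was 7.00 (SE 0.25) (edgeR adjusted p = 3.95e-19). Relative to the floor in fibroblasts its level in neurons was at least 31.6-fold higher. Robo2 (ENSMUSG00000052516, chr16:73891839-74411825, minus strand), a Slit receptor, was likewise highest in neurons, at 63.7 and 64.7 CPM, with 7.16 and 7.07 in glia, 3.77 and 5.4 in fibroblasts and 4.75 and 0 in macrophages. Neurons exceeded glia in Robo2 by 3.21 (SE 0.09) on the log2 scale (edgeR adjusted p = 3.28e-22). Robo1 was instead highest in fibroblasts, at 14.4 ± 3.7 CPM against 1.47 ± 0.362 in neurons and 0.309 ± 0.00764 in glia. Robo3 and Robo4 had 2 and 1 UMIs in all.

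Netrin counts lay mostly in glia and fibroblasts and those of the Unc5 receptors mostly in neurons and fibroblasts. Ntn5, a short netrin, stood at 49.7 and 53.4 CPM in glia, 14.3 and 10.4 in macrophages, 7.23 and 8.8 in neurons and 2.83 and 3.32 in fibroblasts. Ntn1, the secreted netrin that attracts commissural axons, stood at 28.3 and 22 CPM in fibroblasts, 7.95 and 7.6 in glia and 0.689 and 0.77 in neurons. Ntn1 was thus higher in fibroblasts than in glia, by 1.93 (SE 0.18) on the log2 scale (edgeR adjusted p = 6.72e-10). Unc5b, a repulsive netrin receptor, was a fibroblast gene at 27.8 and 37 CPM, with 2.58 and 3.74 in neurons and 1.61 and 0.912 in glia (log2 difference of fibroblasts over glia 4.92 (SE 0.27)). The 4 Unc5 genes were all higher in neurons than in glia by log2 differences of 1.33 for Unc5b, 3.00 for Unc5c, 3.20 for Unc5a and 5.55 for Unc5d. Dcc, the attractive netrin receptor, had no UMI in any cell, which allows a level of up to 0.145 CPM in neurons and 0.0580 in glia.

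The 34 genes below 10 CPM ranged from none (Dcc and Plxna4os3) to 12.6 CPM for Sema4a in macrophages, where 1 library did not reach 10. Those with a UMI but too few counts for the test were Robo4, Plxna4os2, Epha6, Robo3, Epha1, Plxna4os1, Epha8, Epha10, Ephb1, Efna3, Sema5b and Efnb3. Epha10 and Epha8 had no UMI in glia, and their levels in neurons were at least 16.9-fold and 9.53-fold above the glial floor. The 20 that were tested were Unc5a, Unc5c, Unc5d, Epha2, Epha3, Epha4, Epha7, Ephb3, Ephb4, Sema3a, Sema3d, Sema4a, Sema4g, Sema6b, Sema6c, Ntn4, Efna4, Plxna1, Plxna3 and Plxnb1. Unc5d, a netrin receptor with 9.48 ± 1.84 CPM in neurons, had 0 in fibroblasts and was at least 14.3-fold higher in neurons than there.

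The other class comparisons, which share libraries and cells with the first, gave calls near the background of all genes. In fibroblasts 17 of the 57 genes were higher and 21 lower than in glia, that is 29.8% and 36.8% beside 25.0% and 30.9% of all genes. Neurons against fibroblasts gave 19 higher and 23 lower, 33.3% and 40.4% beside 36.9% and 32.2%. In macrophages 5 genes (Nrp1, Nrp2, Plxnb2, Plxnc1 and Sema4a) were higher and 14 lower than in glia, 8.77% and 24.6% beside 12.1% and 21.8%, and DESeq2 called 8 higher and 9 lower. None of these shares lies far from its background, so the counts describe the classes more than the guidance genes. Scaling moved the median of all genes in the macrophage comparison from -0.42 to -0.02 with DESeq2. That of fibroblasts against glia moved from -0.14 to 0.05 (to -0.38 with library sizes alone). In neurons against glia it moved from -0.04 to 0.15 with DESeq2 (to -0.07 with library sizes alone).

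A list of 42 other genes of guidance pathways, such as adaptors, cell adhesion partners and cytoskeletal effectors, was fixed beside the ligands and receptors. Of its 40 tested genes 20 were higher and 17 lower in neurons than in glia, 50% and 42.5% beside 40.9% and 43.0% of all genes. Cntn2, an adhesion molecule of axons, stood at 82.2 CPM in neurons and 0.466 in glia, and Crmp1, an intracellular mediator of Sema3a signalling, at 128 and 1.28. Dock1, a Rac activator, was the one lowest relative to glia, at 8.80 CPM in neurons and 107 in glia (log2 difference -3.58), followed by Ntng1, a netrin relative on a lipid anchor (-2.68). In fibroblasts 11 were higher than in glia, led by Vav3 (5.58) and Flrt2 (3.46), and 17 lower, led by Dpysl4 (-5.14) and L1cam (-4.13), 27.5% and 42.5% beside 25.0% and 30.9% of all genes. Against fibroblasts, 24 were higher in neurons, led by Dscam and Ngef, which had no UMI in fibroblasts, and 11 lower, led by Flrt2 (-3.90) and Rgma (-3.71), 60% and 27.5% beside 36.9% and 32.2%. In macrophages 2 were higher than in glia, Vav3 (6.75) and Vasp (0.63), and 20 were lower, led by Chn1 (-3.06) and Farp2 (-2.60), 5% and 50% beside 12.1% and 21.8%.

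Within glia the guidance genes were read across 5 clusters that differed in markers of satellite glial cells (SGCs, the glia around neuronal cell bodies) and in the cell cycle. Cluster 0 (39.3% ± 0.408 of glia) had the highest SGC list and low cell cycle genes (217 CPM). Cluster 1 (23.1% ± 1.57) had a low SGC list, the highest list of repair Schwann cell genes and 239 CPM of cell cycle genes. The SGC list summed to 11445 CPM in cluster 0 and 2174 in cluster 1. Over all glia Apoe alone held 5543.5 of its 7004 CPM. Fabp7, an SGC marker, stood at 1310.2 ± 22.6 CPM in cluster 0 and 204 ± 9.52 in cluster 1, and Ngfr, a neurotrophin receptor of immature and repair glia, at 41.2 ± 2.28 and 209.6 ± 2.31. The repair list as a whole differed less, with 1446 against 1669 CPM, of which Jun alone held 1149 and 1016. Clusters 2, 3 and 4 (16.8%, 10.9% and 9.91%) had high cell cycle genes, and of these cluster 4 was low in the SGC list. In all, 35 of 45 tested guidance genes differed among the 5 clusters, 77.8% beside 77.6% of all genes, and DESeq2 called 23. This count is no more than the background. Since the clusters came from the same cells, the p-values that follow are not an independent test. They describe the size of a difference against how cluster differences vary between the libraries.

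Cluster 1 and cluster 4, the SGC-low clusters, carried more Epha5, Sema4f, Sema3e, Nrp2 and Ntn5 than the SGC-high clusters. For Epha5 the values in A and B were 186 and 191 CPM in cluster 1 and 115 and 116 in cluster 4, against 58 and 55.4, 39.5 and 46.1 and 23.1 and 16 in clusters 0, 2 and 3. Sema4f stood at 24 and 25.7 CPM in cluster 1 and 15.3 and 16.7 in cluster 4, and at 4.57 and 3.36, 2.95 and 3.93 and 3.05 and 3.32 in the others. Neither gene's values overlapped between the SGC-low and SGC-high clusters. Between clusters 1 and 0 the log2 difference was 1.77 (SE 0.06) for Epha5 and 2.68 (SE 0.18) for Sema4f (edgeR adjusted p = 1.10e-53 and 6.30e-27), and between cluster 4 and the mean of clusters 2 and 3 it was 2.07 (SE 0.09) and 2.34 (SE 0.23). The comparison of dividing clusters was added after the data were seen.

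Nrp2, Sema3e and Ntn5 were likewise higher in clusters 1 and 4 than in the SGC-high clusters, though the order within these groups differed by gene. Nrp2 stood at 46.5 and 45.1 CPM in cluster 1 and 46.6 and 49.6 in cluster 4, against 19.1 and 19.2, 29.3 and 22.4 and 22.8 and 20.5 in clusters 0, 2 and 3. Sema3e stood at 28.7 and 26.4 CPM in cluster 1, 19.7 and 20 in cluster 4 and between 3.96 and 8.99 in the others. Their log2 differences were 1.29 (SE 0.11) and 2.00 (SE 0.16) between clusters 1 and 0, and 1.09 (SE 0.11) and 1.79 (SE 0.19) in the dividing clusters. Ntn5 had 79.3 and 90.8 CPM in cluster 1, 66.3 and 67.4 in cluster 4 and 51.5 and 51.7 in cluster 0, with lower values in clusters 2 and 3. Plxna4, Sema5a and Sema7a were higher as well, Plxna4 with 22.3 and 19.2 CPM in cluster 1 and 10.8 and 9.04 in cluster 0, and Sema7a with 7.43 and 5.77 and 0.241 and 0.463. Nrp1 differed between clusters 1 and 0 by 0.75 (SE 0.09), but not between cluster 4 and clusters 2 and 3 (0.10 (SE 0.08), edgeR adjusted p = 0.36), where all values lay between 55.5 and 67.5 CPM.

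Slit2, Sema6a and Sema3b ran the other way. Slit2 stood at 79.1 and 75.8 CPM in cluster 0, 67 and 63.7 in cluster 2 and 48.7 and 44.9 in cluster 3, against 39 and 37.7 in cluster 1 and 31 and 23.6 in cluster 4. Sema6a stood at 60 and 53.2 CPM in cluster 0 and 35 and 36.2 in cluster 1, and Sema3b at 367 and 364 and 239.8 and 244. All 3 were thus lower in cluster 1 than in cluster 0, with log2 differences of -0.98, -0.63 and -0.56. In the dividing clusters the log2 differences were -0.96 for Slit2, -0.74 for Sema6a and -0.20 for Sema3b (largest edgeR adjusted p = 1.40e-04). Robo2, which was low in glia, stood at 11.3 and 9.73 CPM in cluster 0 and 2.63 and 4.32 in cluster 1. Epha7, named here after its values were seen, fell from 7.82 and 9.15 CPM in cluster 0 to 1.92 and 1.44 in cluster 1 (log2 difference -2.31 (SE 0.32)).

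**Figure D3:**
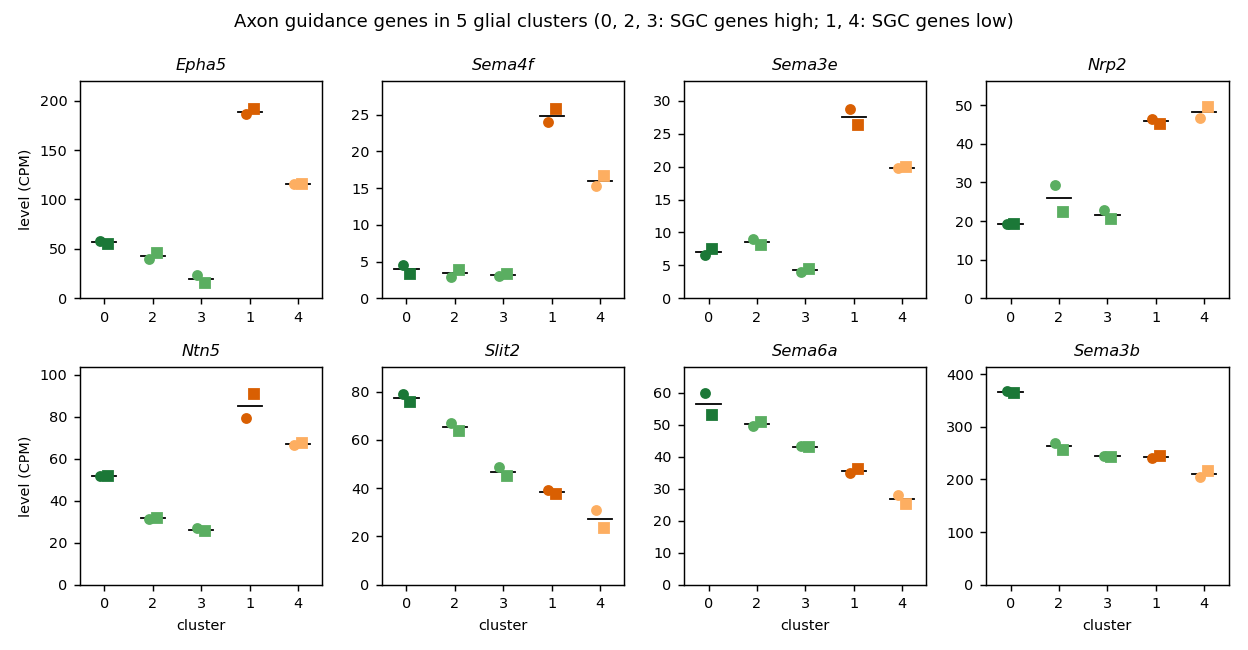
Level in CPM of 8 guidance genes in the 5 glial clusters, with circles for library A, squares for library B and lines for their mean, the SGC-high clusters in green and the SGC-low ones in orange. Epha5, Sema4f, Sema3e and Nrp2 are higher in clusters 1 and 4 than in the other 3 in both libraries, while Slit2 and Sema6a are lower there.

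Between clusters 1 and 0, 14 of the 45 genes were higher and 12 lower, 31.1% and 26.7% beside 17.3% and 21.6% of all 11772 genes tested. Between cluster 4 and clusters 2 and 3, 14 were higher and 8 lower, 31.1% and 17.8% beside 21.2% and 17.5%. DESeq2 called 10 higher and 6 lower in the first and 8 higher and 6 lower in the second. Median log2 differences were 0.04 and 0.10 over the guidance genes, beside -0.02 and 0.01 over all genes. Neuron markers summed to 360 CPM in cluster 1 and 296 in cluster 0, and to 247 in cluster 4 against 226 and 212 in clusters 2 and 3, and fibroblast markers to 2527 against 2127 and to 2362 against 1793 and 1601. Over all glia the fibroblast markers summed to 2082 CPM, most of it from the collagen genes Col1a2 (1134), Col3a1 (645) and Col1a1 (265). Dcn stood at 3.57 CPM and Lum at 3.13. The part of neuronal and fibroblast transcripts in the differences was not tested.

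The promoters of Epha5, Sema4f, Sema3e and Nrp2, chosen after the values were seen, are shown because these genes were higher together in the SGC-low clusters. Each is the first listed for the gene in RefSeq on GRCm38.p6, from 250 bases before the start site to 50 after it, 5′ to 3′ on the strand of the gene. Capitals mark GGGCGG, a GC box bound by Sp factors, and CCAAT, on either strand (CCGCCC and ATTGG on the other), overlapping copies included.
Epha5 (chr5:84417333-84417632, minus strand): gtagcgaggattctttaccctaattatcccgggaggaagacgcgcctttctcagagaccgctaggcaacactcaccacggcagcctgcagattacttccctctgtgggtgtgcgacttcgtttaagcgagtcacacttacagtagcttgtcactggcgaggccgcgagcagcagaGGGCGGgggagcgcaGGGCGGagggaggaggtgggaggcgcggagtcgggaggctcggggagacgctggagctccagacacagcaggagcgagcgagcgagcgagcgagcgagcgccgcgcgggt
Sema4f (chr6:82939720-82940019, minus strand): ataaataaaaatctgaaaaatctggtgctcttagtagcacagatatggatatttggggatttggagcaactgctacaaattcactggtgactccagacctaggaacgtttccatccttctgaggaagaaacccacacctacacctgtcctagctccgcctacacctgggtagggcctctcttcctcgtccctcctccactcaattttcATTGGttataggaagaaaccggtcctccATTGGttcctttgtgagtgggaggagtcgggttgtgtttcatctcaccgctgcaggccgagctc
Sema3e (chr5:14025026-14025325, plus strand): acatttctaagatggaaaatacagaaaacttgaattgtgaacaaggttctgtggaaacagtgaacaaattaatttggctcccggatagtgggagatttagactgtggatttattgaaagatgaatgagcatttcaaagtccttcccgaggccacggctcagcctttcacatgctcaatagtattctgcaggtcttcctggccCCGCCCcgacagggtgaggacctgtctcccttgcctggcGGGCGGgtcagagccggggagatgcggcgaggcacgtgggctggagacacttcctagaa
Nrp2 (chr1:62703067-62703366, plus strand): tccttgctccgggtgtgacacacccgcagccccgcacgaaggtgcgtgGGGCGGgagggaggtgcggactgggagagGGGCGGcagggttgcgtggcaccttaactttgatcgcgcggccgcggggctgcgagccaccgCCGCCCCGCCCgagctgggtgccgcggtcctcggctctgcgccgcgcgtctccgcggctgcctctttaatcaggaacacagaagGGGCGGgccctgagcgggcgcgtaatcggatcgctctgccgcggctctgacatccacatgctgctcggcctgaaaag

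The 4 windows had little in common. The promoters of Epha5 and Nrp2 were rich in CpG, with 30 and 37 CpG in 300 bases and GC contents of 64.3% and 70.7%, against a median of 7 CpG and 52.7% over all 32851 promoters. Those of Sema3e and Sema4f had 11 and 7 CpG and GC contents of 50.7% and 48.7%. GGGCGG occurred 2 times in Epha5, 5 times in Nrp2 and 2 times in Sema3e, and CCAAT 2 times in Sema4f. Over all promoters 35.7% held GGGCGG and 37.4% CCAAT on either strand, while 70.3% and 28.4% of the 74 promoters found for 58 of the 71 guidance genes did. TGANTCA, the AP-1 site, was searched since Jun is in the repair list. It was in none of the 4 windows, in 7.81% of all promoters and in 4.05% of those of the guidance genes, and TATAAA in 13.6% and 2.70%. A match is only a description of these letters.

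Neurons were split into 6 clusters, of which 5 held at least 10 cells in each library and were compared. They differed most in Calca, the neuropeptide gene of peptidergic nociceptors, at 9060.0 CPM in cluster 3, 4926 in cluster 2, 2466 in cluster 4, 532 in cluster 1 and 512 in cluster 0. Nefh, a neurofilament of large neurons, was highest in cluster 3 at 499 ± 65.4 CPM, and P2rx3, an ATP receptor of nociceptors, highest in cluster 0 at 101 ± 9.3. The clusters are kept as numbers, since the subtype lists did not name them singly. Cluster 1 was shallower than the others, with a median of 12571 UMIs, and the sixth cluster, of 27 cells with a median of 4899 UMIs and glial genes, was left out of the test.

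Guidance genes differed among the neuron clusters in 35 of 39 tested genes, 89.7% beside 64.4% of all 11234 genes. The other 32 genes had too few counts in neurons for this test. As in glia, the clusters came from the same cells and the test is not independent of them.

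Nrp1, Nrp2 and Sema5a came together in cluster 3, which had the highest Calca and Nefh. Nrp1 stood at 61.6 and 67.9 CPM in cluster 3 and 54.3 and 77.6 in cluster 4, 31.7 and 35.8 in cluster 1, and only 4.34 and 5.57 and 6.94 and 7.62 in clusters 0 and 2. Nrp2 stood at 64.3 and 84.8 CPM in cluster 3, and from 1.98 to 10.8 elsewhere. Sema5a stood at 104 and 107 CPM in cluster 3 and from 0.833 to 9.0 elsewhere. Cluster 3 was set apart from all others for Nrp2 and Sema5a, while for Nrp1 it overlapped cluster 4. The test of any difference gave edgeR adjusted p = 3.47e-23 for Nrp1, 2.14e-23 for Nrp2 and 4.74e-28 for Sema5a. By their means Epha5, Sema3f, Sema4d and Sema4f were also highest in cluster 3, Epha5 with 107 and 120.3 CPM there against 26.3 and 22.2 in cluster 2, and Sema3f with 28 and 26.8 against 3.76 and 4.91 in cluster 0.

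Sema6a was the counterpart. It stood at 155 and 151 CPM in cluster 0 and 146 and 157 in cluster 1, 69.7 and 51.9 in cluster 4, 37.2 and 38.8 in cluster 2 and 9.19 and 3.12 in cluster 3 (edgeR adjusted p = 1.12e-26). The clusters low in Calca were therefore those high in this ligand. Plxna4, the most neuronal of the plexins, was present in every cluster, highest in clusters 0 and 1 at 269 and 280.3 and 319 and 295 CPM and with the lowest mean in cluster 3, 139 and 135. Plxnc1 was split more sharply, with 91.1 and 92.5 CPM in cluster 4, 56.7 and 60.6 in cluster 0 and at most 15.6 elsewhere (edgeR adjusted p = 2.85e-24).

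Robo2 and Slit1 were counted in each of the 5 clusters. Robo2 stood at 89.2 and 94.2 CPM in cluster 2, 71.2 and 71.7 in cluster 0, 57.9 and 63 in cluster 3, 52.3 and 50.7 in cluster 4 and 40.4 and 37.5 in cluster 1 (edgeR adjusted p = 4.84e-08). Slit1 ranged from 11.8 to 39.5 CPM, and the order of its clusters was not the same in the 2 libraries. Unc5d, named here after its values were seen, was highest in cluster 4 at 18.2 and 24.5 CPM and lowest in cluster 1 at 0.721 and 0. Plxnb2 ran from 8.32 to 14.4 CPM over the clusters with no called difference (edgeR adjusted p = 0.57), and Unc5b, Plxnb1 and Sema6c did not pass either. The 8 glial markers summed to 345 CPM in cluster 4 and 1058 in cluster 2. They include Gfra3 and S100b, which held 255 and 88.0 of the 692 CPM over all neurons. Slit2 and Ntn5 were lowest in cluster 4, at 1.98 and 0.597 and 1.58 and 1.19 CPM. The part of glial transcripts in the levels of Slit2 and Ntn5 was not tested.

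**Figure D4:**
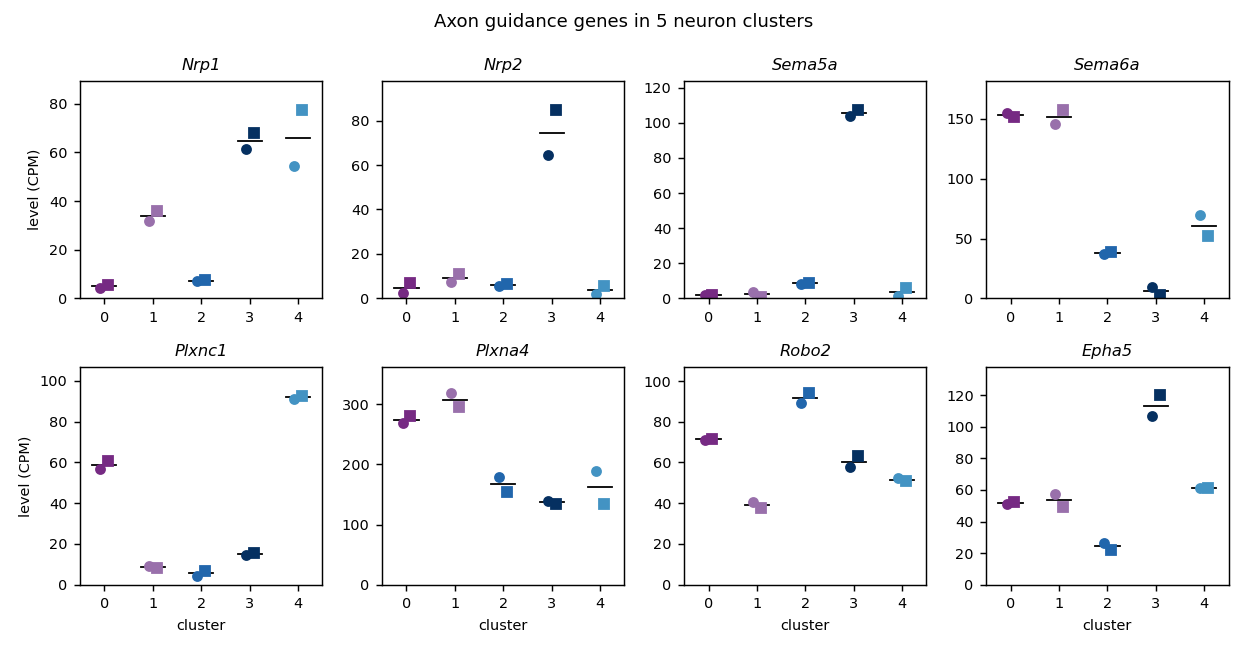
Level in CPM of 8 guidance genes in 5 neuron clusters, with circles for library A, squares for library B and lines for their mean. Cluster 3 is highest in Nrp2, Sema5a and Epha5 and lowest in Sema6a, and Plxnc1 is high in clusters 0 and 4.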

How the data were processed

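The count matrices hold whole UMI numbers per barcode, which the authors deposited as raw counts from Cell Ranger (3.0.2 per the submitters' processing notes, 3.1.0 in the matrix header) on mm10, unscaled. Barcodes with 200 or more genes and no more than 10% mitochondrial UMIs entered Seurat 5.3.0 clustering in R 4.3.3 (2000 variable genes without the 71, 20 dimensions, resolution 0.18), and clusters took their names from marker lists. Scrublet (scanpy 1.11.5) called 1 cell per library, so it has not worked here and doublets remain. For each library and class or cluster, counts were summed and expressed as CPM, which is not scaled by gene length. Transcripts are counted at their 3′ ends, and reads of overlapping genes were not examined. The sums were compared in edgeR 4.0.16 by its quasi-likelihood test, after filterByExpr and TMM scaling and with a term for library. Benjamini-Hochberg adjustment ran over all genes tested, with a threshold of 0.05, and 3 (classes) or 4 (clusters) residual degrees of freedom. On counts simulated for neurons against glia (12741 genes), edgeR recovered 90.3% of genes changed 1.5-fold, 81.0% changed 2-fold and 96.8% changed 4-fold, and 3.47% of 173 calls were false. Only 62, 63 and 62 genes were changed there, while in the data 40.9% of all genes were called higher and 43.0% lower. The simulated shares therefore do not describe a comparison in which most genes differ. Every guidance gene that reached 10 CPM in both libraries of a class is named with values, and of the pathway list the 2 with the largest passing change in each direction. The genes and lists were chosen with earlier results of these data known. Settings tried in place of these were DESeq2 1.42.0, all genes with a UMI, fits with no library term, library sizes without TMM, resolutions 0.3 and 0.4, an 8% mitochondrial limit, the 71 genes not held out, no cells of the highest 5% of Scrublet scores, each library left out, other thinning depths and, chosen after seeing the data, neurons without a cluster of 27 cells. Figures were drawn with matplotlib 3.10.9, and positions are from the GENCODE annotation of GRCm38.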

Additional observations from a re-analysis of the deposited data

How the results depend on the processing

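Counts of guidance genes called stayed within 1.5 times the reported ones and no count of calls changed direction, except with DESeq2. It called 8 genes higher and 9 lower in macrophages than in glia (5 and 14 with edgeR), 23 among glial clusters (35), 6 lower in cluster 1 than in cluster 0 (12) and 8 higher in cluster 4 than in clusters 2 and 3 (14). For Efna2 the log2 difference of neurons over glia turned from -0.28 to 0.012 without the cells of highest Scrublet score. Calls lost in neurons against glia were Epha5 in 4 settings (-0.17 to -0.08), Efna2 in 5, Sema7a in 4 and, with DESeq2, Plxna2, Sema3c, Sema4b and Ephb6. Plxnd1 lost its call in 4 settings and Sema3g with DESeq2 in neurons against fibroblasts, and in macrophages Plxnb3 did in 4, Sema3e in 2, and Ephb6 and Sema3g with DESeq2. Between clusters 1 and 0 DESeq2 did not call Sema6d, Plxnb3, Efnb1, Sema3c, Ephb6, Efna2, Sema4d, Sema5a and Efna5, of which Efna2 was also lost at resolution 0.3 and Efna5 with no filter. In the dividing clusters it did not call Sema6d, Sema3f, Sema5a and Plxnb2, and Sema6d and Plxnb2 were also lost at resolution 0.3. The cause was not tested. With library A or B left out there is no test. The called genes then had their sign in either library, namely 20 higher and 32 lower in neurons against glia, 17 and 21 in fibroblasts against glia, 19 and 23 in neurons against fibroblasts, 5 and 14 in macrophages, 14 and 12 in cluster 1 against 0, and 14 and 8 in the dividing clusters, which a call from both libraries nearly fixes and which says nothing on stability. The tests among clusters have no such value. Each fit compared classes or clusters within libraries through a term for library, and leaving this term out moved no count by more than 1. Macrophages rest on 83 cells, where 1 UMI is about 2 CPM in a library.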

Other observations

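Plxna4os1, an antisense gene inside Plxna4 (ENSMUSG00000086763, chr6:32511073-32515576, plus strand, GRCm38), had 10 UMIs in all, and is named after its values were seen. Of these, 9 were in the 83 macrophages, 4 in library A and 5 in library B, and 1 was in the 9449 glia, with none in the 809 neurons, where Plxna4 itself stood at 212 ± 7.11 CPM. As levels, these were 9.51 and 10.4 CPM in macrophages. Plxna4 stood at 11.9 and 14.6 CPM in macrophages.

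Among the genes that did not reach 10 CPM in both libraries of a class, also named after their values were seen, several stood highest in fibroblasts. Epha3, an Eph receptor, was at 4.25 and 6.23 CPM in fibroblasts of A and B and 0.118 and 0.038 in glia, and Sema3d, a secreted semaphorin, at 5.66 and 3.74 and 0.157 and 0.266. Their log2 differences were 6.11 (SE 0.73) and 4.61 (SE 0.65), and Ntn4, a netrin of basement membranes, followed with 2.60 (SE 0.49) (edgeR adjusted p = 6.30e-05). In neurons Plxna3, a partner of Nrp2, stood at 10.5 and 9.02 CPM against 4.41 and 3.61 in glia, a log2 difference of 1.32 (SE 0.17), and Sema6c at 5.85 and 5.39 against 1.18 and 1.18. Sema4a, a semaphorin known from immune cells, stood at 19 and 6.25 CPM in macrophages and 0.866 and 1.18 in glia, with a log2 difference of 3.72 (SE 0.75). Each of these genes was higher in both libraries of the class named.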
